A study of Bos taurus with 6 samples.

Results

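The 2-oxoacid dehydrogenase complexes are mitochondrial enzyme assemblies, and the genes described here encode 10 of their subunits in the bovine (Bos taurus) oocyte. The symbols are DBT, BCKDHA, BCKDHB, DLD, PDHA1, PDHB, DLAT, PDHX, OGDH and DLST, and they match 12 rows of the 20707 genes in the deposited expression table. The set was chosen by the measured RPKM difference of DBT between the immature and the mature oocyte, and the other 9 symbols were listed with it as subunits of the same or related complexes. The change of DBT is therefore given as a description with no test. Of the 12 rows, 9 averaged 1 RPKM or more across all 6 libraries and entered the test, and 3 did not (OGDH and both of the minor DLAT rows).

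The study compared single oocytes from abattoir ovaries at 2 stages. GV oocytes, arrested in prophase of meiosis with an intact germinal vesicle, were taken at follicle aspiration, and MII oocytes, arrested at metaphase of the second meiotic division, had been matured in vitro for 24 hours. Both stages came from cumulus-oocyte complexes, had no other treatment in the labels, and went through the same low-input cDNA kit. The labels give neither animals nor ages, so with 3 libraries a stage the p-values measure only the spread between these libraries. One label calls all 6 samples matured in vitro, and the stage was taken from the label that names it. The study's title ties the comparison to cytoplasmic polyadenylation, by which stored mRNAs gain longer poly(A) tails during maturation. This kit primes cDNA on those tails, so a measured level depends on transcript number and on tail capture together.

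Each complex passes a 2-oxoacid through 3 catalytic steps. An E1 enzyme, dependent on thiamine diphosphate, removes carbon dioxide, an E2 enzyme moves the acyl group on a lipoate arm to coenzyme A, and the E3 enzyme reoxidizes the lipoate and passes electrons to NAD. The branched-chain complex commits the oxoacids of leucine, isoleucine and valine to breakdown, the pyruvate complex feeds acetyl-CoA into the citric acid cycle, and the 2-oxoglutarate complex is a step of that cycle. Bovine oocytes are known to rely on pyruvate oxidation during maturation.

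RPKM, the unit of every level below, is reads scaled to gene model length and to the mapped reads of a library, and it is relative to the total of a library, since no spike-in enters it. Depth recovered from the low values was 20.22 to 29.93 M reads for GV and 21.26 to 32.55 M for MII libraries. The libraries are named by their column headings, GV14, GV14c and GV15 and MII14c, MII15 and MII15c. The headings GV14c and MII15c match no sample title, so those 2 columns were assigned to a stage and to no sample. The main fit used their stage only. Checks on replicate number and letter c took both from these headings, with no title to back them. The labels give an adapter dilution of 1 in 30 for GV14 and 1 in 10 for GV15, against 1 in 50 for MII14c and MII15, and among these columns dilution and stage cannot be told apart. All 10 oocyte markers (GDF9, BMP15 and others) were in the table, with 9 or 10 of them at 1 RPKM or more in every library and a summed level of 6894 to 9923 RPKM in GV and 2877 to 3794 in MII. Of 13 cumulus and granulosa markers, 12 were in the table, 4 to 6 reached 1 RPKM in a library, and 4 or 5 were at 0. The summed level of those markers was 93.63 to 173.7 RPKM in GV and 108.8 to 111.5 in MII, with PTX3 and AMHR2 at 0 in all 6 libraries. Of the 4 such markers tested, HAS2 rose from 16.27 ± 4.06 to 59.54 ± 4.84 RPKM and VCAN from 3.315 ± 0.839 to 7.987 ± 1.31, STAR fell from 101.2 ± 34.2 to 35.42 ± 5.46 (SD, n = 3 each; limma adjusted p = 0.000685, 0.0214 and 0.00395), and GJA1 did not pass (adjusted p = 0.648). HAS2 and VCAN moved with stage in the direction of DBT and STAR in that of PDHA1 and PDHB, and the part of such cells in the results was not tested.

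DBT, the lipoate-bearing E2 core of the branched-chain complex, stood at 17.552, 13.45 and 17.71 RPKM in GV14, GV14c and GV15 and at 97.081, 84.847 and 88.581 RPKM in MII14c, MII15 and MII15c. The lowest MII library lay far above the highest GV library. The means were 16.24 ± 2.42 RPKM in GV and 90.17 ± 6.27 in MII (SD, n = 3 each), a ratio of 5.55. On the log2(RPKM + 1) scale, used for every log2 change here as MII minus GV, the change was 2.41 ± 0.22 (SE; 95% interval 1.92 to 2.90). By mean level DBT moved from position 3086 among all genes of the table in GV to position 703 in MII. In size its change ranked 6th among the 1162 genes called higher, a count that includes DBT. DBT was chosen for this change, so neither the rank nor the interval is a test of it. At the recovered depths these levels correspond to 358 to 525 reads per kilobase in GV and 1804 to 3019 in MII, from amplified cDNA in which a read is not a separate molecule.

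The DBT gene (ENSBTAG00000006320) lies on chromosome 3 from 43189864 to 43230456 on the + strand in the authors' deposited annotation, whose build is not given in the sources used here. It has 11 coding exons with 1449 nt of coding sequence and 1427 nt annotated after the coding part. No other annotated gene overlaps it, so none of its reads can belong to an overlapping or antisense gene of that annotation.

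**Figure D1:**
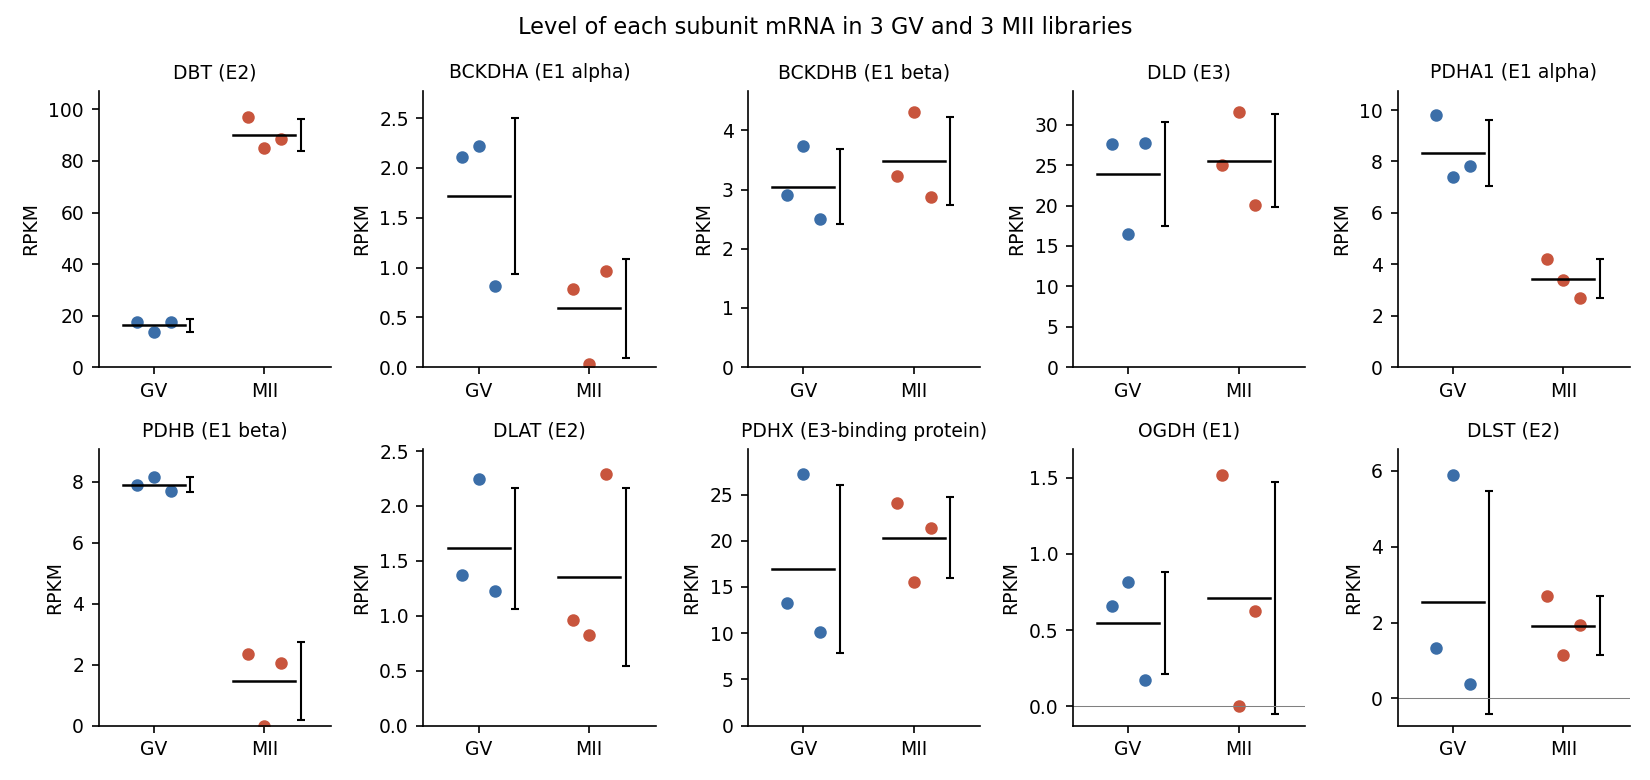
Level of each subunit mRNA in RPKM (vertical axis, a scale of its own for each gene) by stage, with 1 point for each of 3 GV (blue) and 3 MII (red) libraries, a line at the mean and a bar of 1 SD beside it; for DLAT the row of highest level is drawn. DBT rises from 13.45 to 17.71 RPKM in GV to 84.847 to 97.081 in MII, PDHA1 and PDHB are lower in MII with no overlap, and the stages overlap for the other 7 genes.

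The E1 partners of DBT did not rise with it. BCKDHA, the alpha chain of the branched-chain E1 and the site of its regulatory phosphorylation, was at 2.11, 2.22 and 0.816 RPKM in GV and at 0.786, 0.027 and 0.961 RPKM in MII. The stages overlapped through GV15 and MII15c, and MII15 was lowest. Its log2 change was -0.78 ± 0.38 (SE; 95% interval -1.63 to 0.07) and did not pass (limma, Benjamini-Hochberg adjusted p = 0.131). It was called lower with the letter c of the headings as a term (limma adjusted p = 0.0244). BCKDHA was the 1 tested row with a mean under 1 RPKM in a stage, 0.5913 ± 0.496 in MII (SD, n = 3), so it entered the test through its GV level of 1.715 ± 0.781 RPKM.

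BCKDHB, the beta chain of the same E1, was at 2.91, 3.74 and 2.501 RPKM in GV and at 3.235, 4.315 and 2.883 RPKM in MII. Both stages covered nearly the same range. The change was 0.14 ± 0.31 (SE; 95% interval -0.55 to 0.83; limma adjusted p = 0.737). BCKDHA (ENSBTAG00000016037) lies on chromosome 18 from 50819358 to 50838361 and BCKDHB (ENSBTAG00000012096) on chromosome 9 from 20069512 to 20335161, so no branched-chain subunit shares a chromosome with DBT.

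DLD, the E3 flavoprotein that serves all 3 complexes and the glycine cleavage system, was at 27.577, 16.52 and 27.753 RPKM in GV and at 25.073, 31.552 and 20.065 RPKM in MII. The libraries of the 2 stages were interleaved, with GV14c lowest. The means were 23.95 ± 6.44 and 25.56 ± 5.76 RPKM (SD, n = 3 each), and the change of 0.10 ± 0.29 (SE; 95% interval -0.55 to 0.76) did not pass (limma adjusted p = 0.795). DLD had the highest mean of the 10 symbols in GV, whereas DBT did in MII. The gene (ENSBTAG00000001908) has 14 coding exons on chromosome 4 from 49210082 to 49259740.

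Both chains of the pyruvate E1 fell. PDHA1, the X-linked alpha chain on which the pyruvate dehydrogenase kinases act, was at 9.794, 7.399 and 7.814 RPKM in GV and at 4.218, 3.405 and 2.702 RPKM in MII. The stages did not overlap, with GV higher. The change was -1.08 ± 0.30 (SE; 95% interval -1.74 to -0.41; limma adjusted p = 0.0182; 0.000241 to 0.123 over 18 alternatives). It no longer passed without GV14 (-0.97, adjusted p = 0.0825), without MII15c (-0.95, 0.0777), without the 2 untitled columns, GV14c and MII15c (-1.02, 0.123), or with quantile normalization (-0.69, 0.0748), all by limma. PDHA1 (ENSBTAG00000019852; X, 130874454 to 130917959, - strand) shares 1200 nt with MAP3K15 on the other strand, which was at 1.15 to 3.222 RPKM over the 6 libraries, and reads in the shared part cannot be told apart without strand.

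PDHB, the beta chain, was at 7.893, 8.157 and 7.688 RPKM in GV and at 2.337, 0 and 2.049 RPKM in MII. GV libraries lay close together and above every MII library, and MII15 was listed at 0, where a count of 0 allows up to 0.131 RPKM (3 reads, counting error only). The means were 7.913 ± 0.235 and 1.462 ± 1.27 RPKM (SD, n = 3 each), with a change of -2.04 ± 0.46 (SE; 95% interval -3.09 to -0.99; limma adjusted p = 0.0078). The call held in all 17 alternatives that kept the gene (adjusted p 0.000331 to 0.0458). PDHB (ENSBTAG00000021724) lies on chromosome 22 from 43461214 to 43466626.

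The core subunits of the pyruvate complex did not pass in either direction. DLAT, its lipoate-bearing E2 and the counterpart of DBT, was at 1.372, 2.244 and 1.228 RPKM in GV and at 0.958, 0.824 and 2.289 RPKM in MII (change -0.18 ± 0.35, SE; 95% interval -0.97 to 0.60; limma adjusted p = 0.704). The highest MII library, MII15c, was level with the highest GV library, GV14c. DLAT (ENSBTAG00000010709; chromosome 15, 22665193 to 22699802) shares 4303 nt with PIH1D2 on the other strand, which was at 15.859 to 23.66 RPKM, several times its own level.

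Another pair of rows also carry the symbol DLAT. The row on chromosome 10 (ENSBTAG00000038327; 65655784 to 65657656) was at 0.384, 2.197 and 0.244 RPKM in GV and 0.334, 0.026 and 0.841 in MII, and the row on chromosome 3 (ENSBTAG00000005143; 102575257 to 102576762) stayed at or below 0.081 RPKM in every library. Gaps between their coding parts were 1 to 30 nt and 1 to 116 nt, and the authors' deposited annotation gave them no spliced read among 139 and 5 reads. Copies of near-identical sequence can share reads. The sequences of the 3 DLAT rows were not compared, so how reads divide among these rows is uncertain. GV14c was the highest GV library in each of them.

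PDHX, the protein that binds E3 to the pyruvate core, was at 13.292, 27.259 and 10.183 RPKM in GV and at 24.058, 15.498 and 21.372 RPKM in MII. GV14c exceeded every MII library while GV14 and GV15 lay below them. The change was 0.34 ± 0.36 (SE; 95% interval -0.48 to 1.17; limma adjusted p = 0.482), with means of 16.91 ± 9.1 and 20.31 ± 4.38 RPKM (SD, n = 3 each). Array weights, which give each library a weight from its scatter, turned this into a call (0.60, limma adjusted p = 0.0314). PDHX (ENSBTAG00000018261; chromosome 15, 66231127 to 66307452) shares 572 nt with APIP, at 109.666 to 297.171 RPKM, on the other strand.

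OGDH, the E1 of the 2-oxoglutarate complex, was at 0.655, 0.815 and 0.173 RPKM in GV and at 1.514, 0 and 0.623 RPKM in MII, under the minimum for the test. Its libraries overlapped, and MII15 was listed at 0. DLST, the E2 of that complex, was at 1.336, 5.893 and 0.389 RPKM in GV and at 2.696, 1.14 and 1.933 RPKM in MII. Here the spread within GV exceeded any difference between stages, with GV14c highest and GV15 lowest, and the change was 0.02 ± 0.55 (SE; 95% interval -1.22 to 1.26; limma adjusted p = 0.982). OGDH (ENSBTAG00000006029) lies on chromosome 4 from 77458516 to 77517754, and DLST (ENSBTAG00000006463) on chromosome 10 from 86533853 to 86552045.

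GV14c was the highest GV library for BCKDHA, BCKDHB, PDHB, DLAT, PDHX, OGDH and DLST and the lowest for DBT, DLD and PDHA1. That library is one of the 2 whose heading matches no title. Without both of them the changes of DBT and PDHB were 2.30 and -2.27 (limma adjusted p = 0.0458 for PDHB).

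Of the 8 tested rows other than DBT, 0 were called higher, 2 were called lower and 6 were not called, by limma at an adjusted p under 0.05. At an unadjusted p under 0.05 the counts were again 0 and 2. Over all 8671 tested genes 40.3% were called, 13.4% higher and 26.9% lower, so 2 of 8 lower is near the background. Changes of the rows not called ran from -0.78 to 0.34. The median of the 9 tested rows was 0.02, but it includes DBT, the gene chosen for its rise. Without DBT the 2 middle rows were DLAT at -0.18 and DLST at 0.02, on either side of the median of -0.16 over all tested genes. Apart from DBT, which was chosen for its difference, stages did not overlap in 2 of the 8 rows (PDHA1 and PDHB, both lower in MII). Over all tested genes 51.9% did not overlap, 19.8% higher and 32.1% lower. Rescaling the libraries moved the median of all genes to 0.05 (median-ratio), 0.22 (quantile) and -0.07 (TPM), and the calls over all genes from 1162 higher and 2329 lower to 1687 and 2059 (median-ratio) or 2133 and 1777 (quantile). DBT was at 2.68, 2.66 and 2.59 on those 3 scales.

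**Figure D2:**
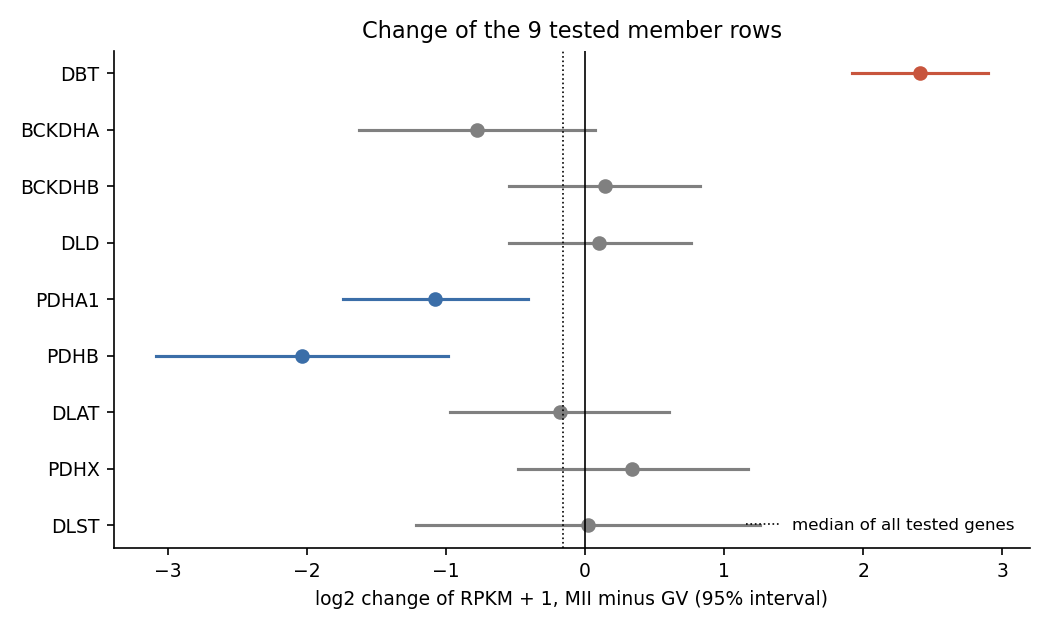
Log2 change of RPKM + 1 from GV to MII (horizontal axis) for the 9 tested member rows, with the point at the estimate and the line its 95% interval from limma; the dotted line is the median of all tested genes, -0.16. DBT (red, 1.92 to 2.90, the gene the list was chosen for) lies to the right of every other member, PDHA1 and PDHB (blue) lie below 0, and the other 6 intervals (grey) cross 0.

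Ratios of RPKM between subunits were taken within a library, where the scaling of that library cancels. DBT mRNA exceeded BCKDHB 6.03-, 3.6- and 7.08-fold in GV14, GV14c and GV15 and 30.0-, 19.7- and 30.7-fold in MII14c, MII15 and MII15c. Against DLD it was at 0.636, 0.814 and 0.638 times in GV and 3.87, 2.69 and 4.41 times in MII, so the order of the E2 and E3 mRNAs of the branched-chain complex was inverted between the stages in every library. Against PDHX the ratio was 1.32, 0.493 and 1.74 in GV and 4.04, 5.47 and 4.14 in MII. DBT made up 20.8%, 15.3% and 23.2% of the summed RPKM of the 10 symbols in GV and 59.9%, 59.9% and 61.7% in MII. These ratios contain the gene chosen for its rise and carry no test.

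Among the 4 pairs without DBT, no ratio passed, and with 3 against 3 libraries an exact two-sided permutation test cannot go below 0.1. These pairs were compared on log2(RPKM + 1), where the added 1 shrinks ratios of low genes and leaves some dependence on scaling. PDHA1 to PDHB was 0.28, -0.12 and 0.02 on the log2(RPKM + 1) scale in GV and 0.64, 2.14 and 0.28 in MII, a difference of 0.96 (exact p = 0.1; adjusted over the 4 pairs 0.2). The lowest MII library lay only just above the highest GV library, and MII15, with PDHB listed at 0, set the largest ratio. BCKDHA to BCKDHB differed by -0.92 (exact p = 0.1; adjusted 0.2), with MII15 again farthest from the rest, at -2.37, where the linear ratio was 0.00626. DLAT to PDHX differed by -0.53 (exact p = 0.2; adjusted 0.267) and OGDH to DLST by 0.05 (exact p = 1.0; adjusted 1.0), both with overlapping stages.

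**Figure D3:**
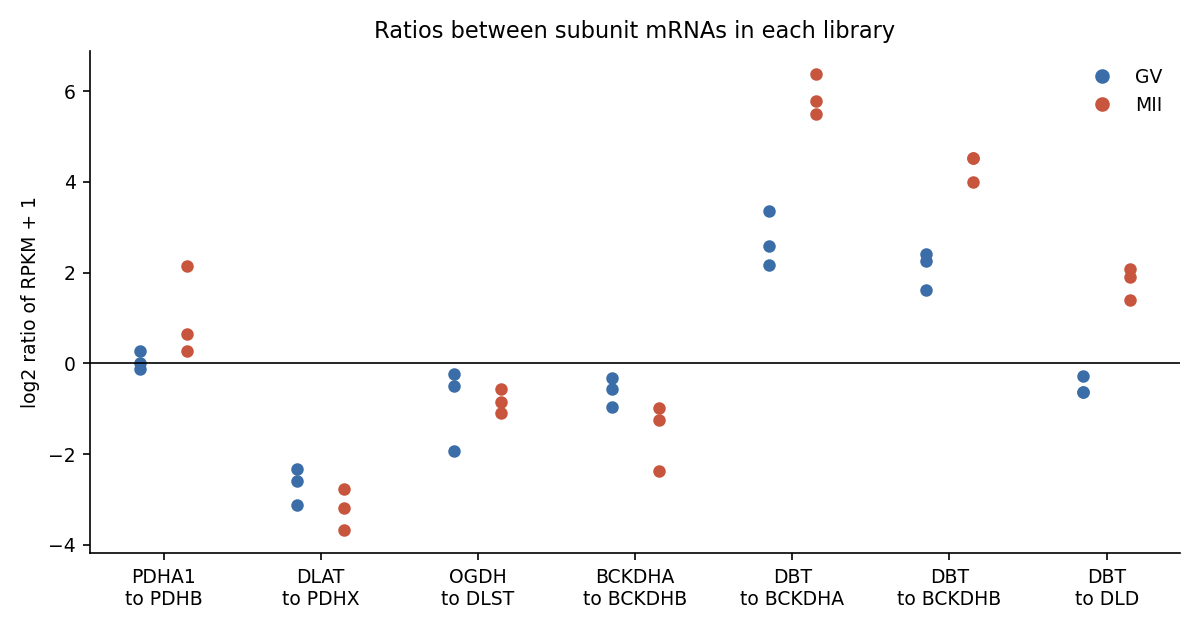
Difference of log2(RPKM + 1) between subunits in each library (vertical axis) for the 4 pairs without DBT and for DBT against its complex partners BCKDHA, BCKDHB and DLD, with 1 point per GV (blue) or MII (red) library. DBT to DLD is below 0 in all 3 GV libraries and above 0 in all 3 MII libraries, while DLAT to PDHX and OGDH to DLST overlap between stages.

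Genes that regulate or feed the complexes were read from 6 lists, 72 genes of which 55 were tested. Across the lists 6 rose, 25 fell and 24 did not pass (56.4% called, against 40.3% of all tested genes), and the median change was -0.64 against -0.16. Without both columns that match no title, 3 rose and 14 fell. Among the genes named below, PDK2, BCKDK, BOLA3, ECHS1, OGDHL, SUCLG1, IDH3B and IDH3G had MII means under 1 RPKM. They entered the test through their GV level, where a fall is the favoured direction. With a minimum mean of 5 RPKM, 6 list genes rose and 16 fell.

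Of 6 tested regulators, the kinases and phosphatases that switch E1 off and on, 1 rose, 2 fell and 3 did not pass (median 0.04). Calls made up 50.0%, near the 40.3% of all tested genes (13.4% higher and 26.9% lower). PDK1, a kinase that inhibits pyruvate dehydrogenase, rose from 5.783, 7.215 and 5.226 RPKM in GV to 21.365, 26.884 and 19.926 in MII (1.74 ± 0.26, SE; limma adjusted p = 0.00112). PDK2, another such kinase, fell from 5.102, 7.485 and 1.148 RPKM to 0.721, 0 and 0.713 (-1.75; limma adjusted p = 0.0242). PDK3 was the most abundant of the kinases at 50.73 ± 2.51 RPKM in GV and 33.66 ± 5.05 in MII (SD, n = 3 each), without overlap, and did not pass (-0.59; limma adjusted p = 0.0544). It was called lower in 4 of 18 alternatives, with no filter (0.0494), a minimum of 5 RPKM (0.0439), array weights (0.00127) and letter c as a term (0.0459), all by limma.

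BCKDK, the kinase that inhibits the branched-chain complex, fell from 3.251, 2.961 and 1.141 RPKM in GV to 0.265, 0.233 and 0.506 in MII (-1.31 ± 0.35, SE; limma adjusted p = 0.0159). PPM1K, the phosphatase that opposes it, was at 0.241, 2.583 and 0.143 RPKM in GV and 0.804, 0 and 0.384 in MII and was not tested. The calls of PDK2 and BCKDK were both lost without GV14 (limma adjusted p = 0.0839 and 0.0639), and without both untitled columns (0.131 and 0.103). PDK2 also lost its call without GV14c, MII15 or MII15c (0.0707, 0.0641 and 0.0569), whereas the call of PDK1 held in all 18 alternatives.

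E2 works only with lipoate attached, and the genes that make and attach it went mostly down. Of 9 tested, 0 rose, 6 fell and 3 did not pass (limma; 0 and 6 at an unadjusted p under 0.05), with a median of -1.47, and 5 to 7 fell over the alternatives. Here 66.7% were called, all lower, against 40.3% called and 26.9% lower over all tested genes. BOLA3, an iron-sulfur cluster factor for lipoate synthase, fell from 14.67 ± 1.68 to 0.6453 ± 0.256 RPKM (SD, n = 3 each; -3.26 ± 0.30, SE; limma adjusted p = 8.18e-05). LIPT1, which transfers lipoate onto the E2 subunits, was at 15.33, 13.876 and 10.629 RPKM in GV and 1.121, 1.012 and 1.561 in MII (-2.67; limma adjusted p = 0.000236). LIAS, the lipoate synthase itself, went from 60.8 ± 7.15 to 19.22 ± 5.78 RPKM (-1.64; limma adjusted p = 0.00138), and NDUFAB1, the acyl carrier protein, from 74.68 ± 19.9 to 18.28 ± 7.25 RPKM (-2.00; limma adjusted p = 0.00152). These 4 calls held in all 18 alternatives, and LIPT2 and ISCA2, named after their values were seen, made up the 6 (-1.47 and -1.28). DBT, a substrate of that pathway, stood higher in the MII libraries in which these mRNAs stood lower.

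For the breakdown of branched-chain amino acids on either side of the complex, 2 of 17 tested genes rose, 4 fell and 11 missed the threshold (median -0.49). The share called, 35.3%, is near the 40.3% of all tested genes, and so are both directions to their 13.4% and 26.9%. MUT, the methylmalonyl-CoA mutase, rose from 12.98 ± 1.76 to 32.87 ± 4.22 RPKM (1.28; limma adjusted p = 0.00308) and HIBADH, of valine breakdown, from 19.67 ± 4.72 to 37.29 ± 3.49 RPKM (0.91; limma adjusted p = 0.017), SD with n = 3 each. HSD17B10, of isoleucine breakdown, fell from 36.94 ± 2.66 to 7.234 ± 1.07 RPKM (-2.21; limma adjusted p = 0.000195). ECHS1, the short-chain enoyl-CoA hydratase, and ACAT1, a thiolase, also fell, at -1.78 and -1.31 (limma adjusted p = 0.00509 and 0.00691). HIBADH lost its call without GV15 or MII15c (limma adjusted p = 0.0576 and 0.0714). HIBADH and ECHS1 lost theirs without both untitled columns (limma adjusted p = 0.153 and 0.064).

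Pyruvate supply mRNAs were mostly lower in MII. Of 7 tested, 1 rose, 4 fell and 2 did not pass (median -1.30). This is 71.4% called, against 40.3% of all tested genes (13.4% higher and 26.9% lower). LDHB, a lactate dehydrogenase subunit, was at 227.781, 280.605 and 255.725 RPKM in GV and 31.605, 13.341 and 22.627 in MII (-3.52; limma adjusted p = 5.74e-05), and LDHA fell from 488.5 ± 181.0 to 132.1 ± 47.2 RPKM (SD, n = 3 each; -1.89; limma adjusted p = 0.0029). MPC1 and MPC2, which form the mitochondrial pyruvate carrier, fell, with log2 changes of -1.30 and -1.45 (limma adjusted p = 0.0129 and 0.0472). SLC19A2, a thiamine transporter, rose from 23.13 ± 4.53 to 42.42 ± 3.51 RPKM (0.86; limma adjusted p = 0.0175). MPC1, MPC2 and SLC19A2 each lost their call without GV14 (0.0549, 0.109 and 0.0719) or MII15c (0.0591, 0.104 and 0.0683), and MPC2 also without GV14c or MII15 (0.151 and 0.112). Each also lost it without both untitled columns (limma adjusted p = 0.135, 0.248 and 0.11). The MPC2 call held in only 7 of 18 alternatives, and its stages overlapped (GV15 at 8.264 and MII14c at 8.815 RPKM).

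Of 13 tested enzymes of the citric acid cycle, 2 rose, 7 fell and 4 did not pass (median -1.42). That made 69.2% called, against 40.3% of all tested genes (13.4% higher and 26.9% lower). SUCLG2 and SUCLG1, subunits of the succinyl-CoA ligase that uses the product of the 2-oxoglutarate complex, moved in opposite directions, SUCLG2 from 47.47 ± 5.56 to 93.46 ± 8.47 RPKM (0.96; limma adjusted p = 0.00551) and SUCLG1 from 7.232 ± 1.64 to 0.2723 ± 0.184 RPKM (-2.68; limma adjusted p = 0.000289). IDH3A and IDH3G, subunits of the NAD-dependent isocitrate dehydrogenase, did likewise, at 0.99 and -2.54 (limma adjusted p = 0.0229 and 0.00108). MDH2, the malate dehydrogenase, and SDHC, a succinate dehydrogenase subunit, fell, with log2 changes of -3.45 and -2.19 (limma adjusted p = 0.000115 and 0.000617). IDH3A lost its call without GV14, GV15 or MII15 (0.0529, 0.084 and 0.0511) and without both untitled columns (0.057), all by limma. In both enzymes, then, the mRNAs of these 2 subunits moved in opposite directions. Of the further subunits, named after their values were seen, IDH3B fell with IDH3G (-2.74, limma adjusted p = 0.00421). SUCLA2 of succinyl-CoA ligase did not pass (0.29, limma adjusted p = 0.414).

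The last list holds other 2-oxoacid dehydrogenases and the glycine cleavage system, which shares DLD. Of 3 tested genes 0 rose, 2 fell and 1 did not pass (limma; 0 and 2 at an unadjusted p under 0.05; median -0.72). With only 3 genes, 66.7% were called, against 40.3% of all tested genes (26.9% lower). OGDHL, a relative of OGDH, was at 6.567, 5.753 and 3.627 RPKM in GV and 1.375, 0.115 and 1.006 in MII (-1.83; limma adjusted p = 0.00541), so in GV it exceeded OGDH in each library. Its call was lost without both untitled columns (limma adjusted p = 0.0532). MRPS36, which links E3 to the 2-oxoglutarate complex, fell from 71.82 ± 9.87 to 43.43 ± 8.72 RPKM (SD, n = 3 each; -0.72; limma adjusted p = 0.0357), a call lost in 11 of the 18 alternatives, among them every change of scale. GLDC, the glycine decarboxylase, was at 2.268 ± 0.801 and 3.11 ± 0.815 RPKM (0.34; limma adjusted p = 0.442).

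**Figure D4:**
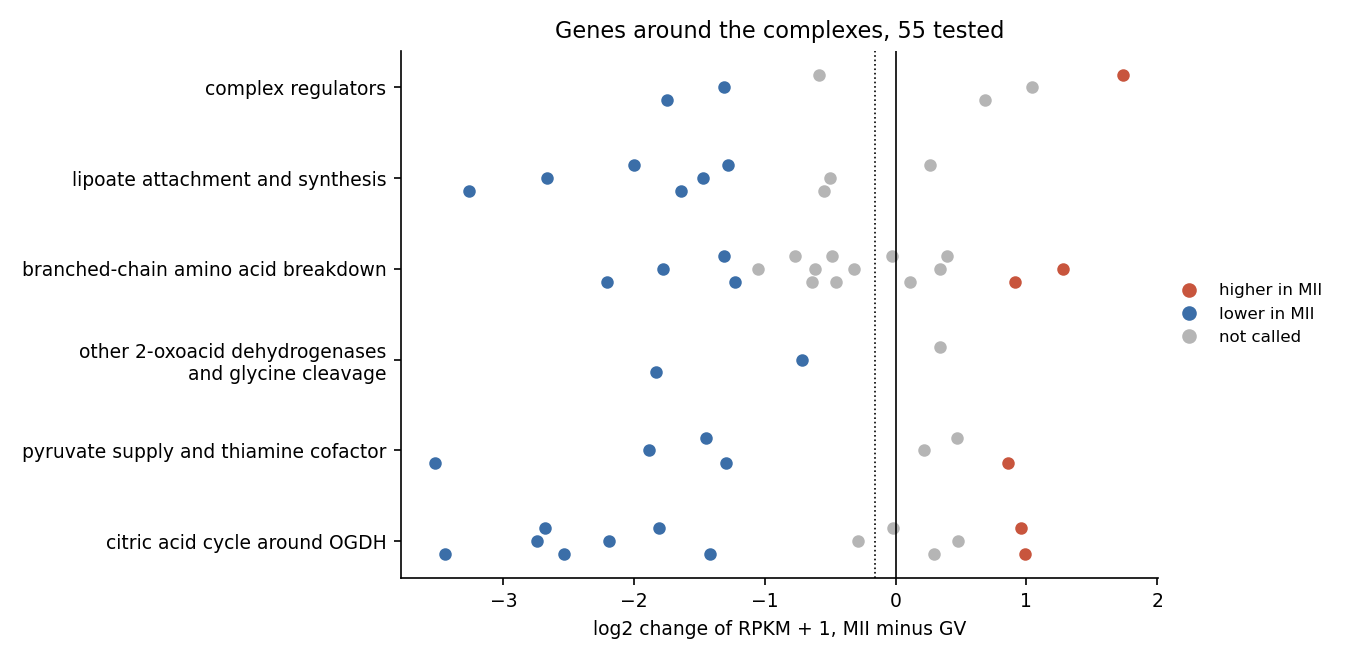
Log2 change of RPKM + 1 from GV to MII (horizontal axis) for the 55 tested genes of the 6 lists, with 1 point per gene, red for called higher, blue for called lower and grey for not called by limma; vertical offsets within a list only keep points apart, and the dotted line is the median of all tested genes. Blue points outnumber red ones in every list, by 25 to 6 in all, and the branched-chain list holds the most grey points, 11 of 17.

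The genes of pattern most like DBT were found by Euclidean distance over the 6 libraries after log2(RPKM + 1) was centred on its mean. CSGALNACT2, an enzyme of chondroitin sulfate synthesis, was nearest at 0.45, with 4.336, 4.282 and 4.448 RPKM in GV and 23.659, 20.909 and 22.165 in MII. TOP2B, a DNA topoisomerase (0.49), QKI, an RNA-binding protein (0.60), ATF2, a transcription factor (0.67), and ACAD11, an acyl-CoA dehydrogenase (0.67), followed. Their log2 changes were 2.07, 2.04, 1.95 and 1.97, and none lies on chromosome 3. The median distance to DBT of the tested genes was 3.36, and PDHX, the nearest of the other members, was at 2.85. Likeness here is over 6 libraries of 2 stages, so any gene with a rise of similar size and small spread ranks near DBT.

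**Figure D5:**
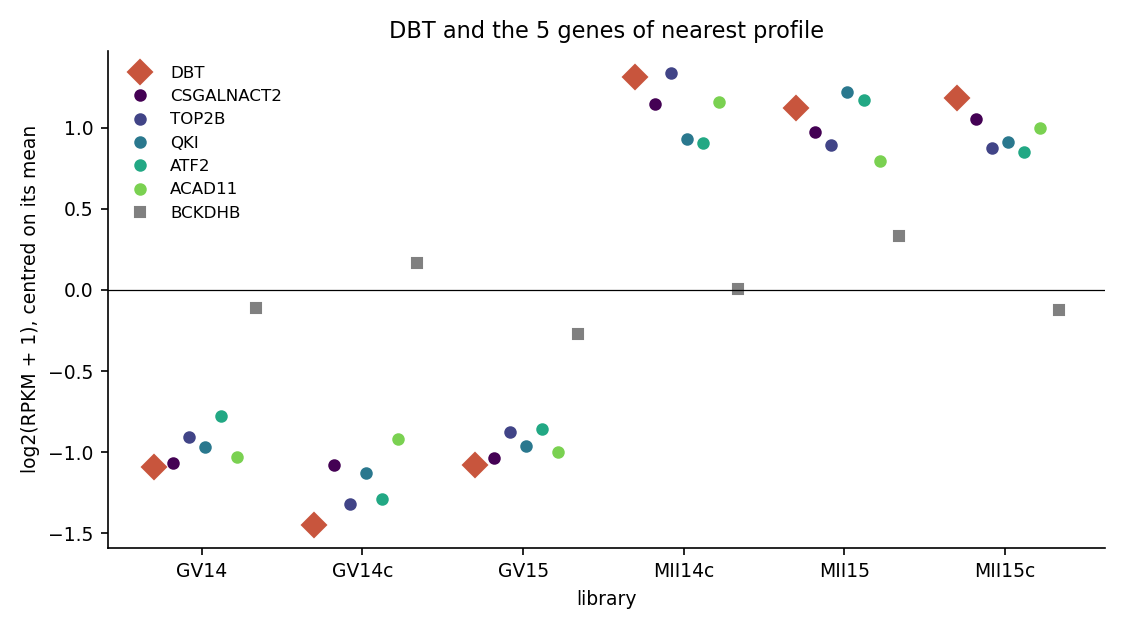
Log2(RPKM + 1) centred on each gene's mean over the 6 libraries (vertical axis) for DBT (diamonds), the 5 genes of nearest profile (circles) and BCKDHB (squares), side by side within each library. DBT and the 5 genes lie below 0 in the 3 GV libraries and above 0 in the 3 MII libraries, whereas BCKDHB is found on both sides of 0 within each stage.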

How the data were processed

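Single-oocyte libraries of 3 GV and 3 MII columns were analysed. The authors deposited RPKM per Ensembl gene, per the file headers, with the human ortholog symbols used here, and an annotation with gene, transcript and coding positions and read counts pooled over their libraries. The submitters' processing notes name DESeq, without its role. What aligner, counting tool or build was used is not given in the sources used here, nor whether counting kept strand. Stage came from the labels.

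Members, lists and alternatives were chosen with earlier results of these data known. Genes averaging 1 RPKM or more were tested with limma 3.58.1 in R 4.3.3 (lmFit, eBayes with trend) on log2(RPKM + 1), all 6 columns, stage only, with Benjamini-Hochberg adjustment over 8671 genes and a threshold of 0.05. Log2 changes understate those of low genes. Subunit ratios were compared by exact permutation. All rows of the 10 member symbols are described. From each list the 4 tested genes of smallest adjusted p are named, plus those that complete a count of 5 or fewer. The values of 1 gene that this rule names are not reported here. A symbol with several rows is represented in lists by the row of highest mean.

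Depth was recovered from 3451 gene models of coding sequence alone: 96.8% to 99.2% of low values lay within 0.1 of a whole read. RPKM are not counts, and no count test was run. Alternatives were 18, covering pseudocount, filter, scaling, weights, variance trend, replicate number, letter c and libraries left out.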

Additional observations from a re-analysis of the deposited data

How the results depend on the processing

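DBT kept its direction under all 18 alternatives, at 2.17 with a pseudocount of 5 RPKM, 2.68 with median-ratio scaling and 2.66 with quantile normalization, against 2.41. PDHB kept its call in all 17 alternatives that held it. PDHA1 lost its call with quantile normalization (-0.69) and without both columns that match no title (-1.02), and ran from -1.20 to -0.95 with each library left out. Of the 8 member rows other than DBT, 1 was called lower with a minimum of 5 RPKM, with quantile normalization and without the untitled columns, and 1 to 2 with each library left out. With array weights 1 was called higher.

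Of the list genes, 16 were called lower with a minimum of 5 RPKM, which tests fewer genes, and without the untitled columns 3 were called higher and 14 lower. With each library left out, 4 to 6 were higher and 19 to 25 lower. Over all tested genes, 2133 were called higher with quantile normalization and 2262 with array weights. Without the untitled columns, a fit on fewer samples, 352 were called higher and 1280 lower. Each library left out gave 585 to 1338 higher and 1719 to 2201 lower. What caused these differences was not tested.

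With the numbers 14 and 15 as a replicate block, 1141 genes were called higher and 2134 lower, and PDHA1 and PDHB kept their calls (limma adjusted p = 0.0349 and 0.0129). Deviations of libraries that share a number correlated at -0.23 to 0.43, so the numbers were not taken to pair the libraries. For libraries alike in having or lacking the letter c the correlations were 0.07 to 0.43, and for the others -0.41 to -0.01. What the letter means is not stated, and for the columns that match no title the number and letter rest on the heading alone. With it as a term 1468 genes were called higher and 2975 lower, and 3 member rows lower, BCKDHA with PDHA1 and PDHB.

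Few reads lie behind the low rows. MII15 held 1 read per kilobase of BCKDHA and 0 of PDHB and OGDH. GV15, at a recovered depth of 20.22 M reads against 21.26 M for MII15, held 16, 155 and 3 of BCKDHA, PDHB and OGDH. The cause of the low MII15 values was not tested. The DLAT row on chromosome 3 held 0 to 2 in every library, and reads amplified without molecular tags can count molecules more than once. With 3 libraries a stage, intervals are wide, and a change that missed the threshold is not shown to be absent.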

Other observations

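The main DLAT row carried far more reads in the authors' deposited annotation than its RPKM accounts for. The annotation gives 4989 reads pooled over the authors' libraries, of which 46, or 0.922%, were spliced, and this is 10.3 times the reads that the RPKM and recovered depths give over the coding sequence. Among 9813 genes with at least 100 reads in the table, the median of that ratio was 1.07 and the 99th percentile 7.16, and 99.58% of genes lay below DLAT. The annotation reads are given for the whole gene, which for DLAT has 1850 nt after the coding part. The DLAT gene also shares 4303 nt with PIH1D2 on the other strand, at 15.859 to 23.66 RPKM. The part of either in the ratio was not tested. For DBT the ratio was 0.853, with 395 of 11059 reads spliced (3.57%). BCKDHB and PDHA1 were at 2.59 and 2.43, with 3.94% and 1.56% of reads spliced. The annotation pools both stages, so these values do not compare GV with MII.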
